A study of Mus musculus with 9 samples.

Results

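The testis-specific serine kinases, Tssk1 to Tssk6, are a family of small protein kinases of male germ cells. All 6 genes with an official Tssk symbol were taken as members, out of 55401 genes in the deposited table, and each of them had counts in every library and passed the filter on low counts. They were examined in acRIP-seq of mouse testis, in which poly(A) RNA is recovered with an antibody against N4-acetylcytidine (ac4C), an acetylated form of cytidine in RNA, and then sequenced. The 9 libraries fall into 3 groups of 3, all from WT male testis with no treatment named. Input is the poly(A) RNA before precipitation, IgG is RNA recovered with a control immunoglobulin, and acRIP is RNA recovered with the anti-ac4C antibody. The labels give no age or strain, while the paper's methods name WT ICR mice. The labels also do not say whether replicates are separate animals, so that p-values measure the spread between these libraries, which may be technical. The question put to each member is whether its transcripts were more abundant in acRIP than in both IgG and input.

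Protein kinases of this family are made mainly in spermatids, the haploid cells that are rebuilt into spermatozoa, and are related in their kinase domain to the AMP-activated protein kinase. TSSK1 and TSSK2 bind and phosphorylate their shared substrate TSKS, TSSK4 phosphorylates the outer dense fibre protein ODF2, and TSSK6 is needed for the exchange of histones for protamines. Male mice that lack both Tssk1 and Tssk2, or Tssk3, or Tssk6, are infertile.

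The coding sequences hold the catalytic Asp-Phe-Gly (DFG) motif that binds magnesium in the active site, and a stretch of 60 bases around it is shown for each member, because it shows how close Tssk1 and Tssk2 are and how far the others stand from them. Capitals mark the DFG codons. Sequences were read from GRCm38, which is the mm10 build, on the strand of the gene, and all lie in coding exons.
Tssk1, chr16:17894782-17894841, plus strand: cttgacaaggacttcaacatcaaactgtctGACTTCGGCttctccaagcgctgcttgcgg
Tssk2, chr16:17899164-17899223, plus strand: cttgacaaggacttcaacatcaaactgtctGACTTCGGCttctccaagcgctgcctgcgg
Tssk3, chr4:129489398-129489457, minus strand: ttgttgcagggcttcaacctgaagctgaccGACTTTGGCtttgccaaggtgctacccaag
Tssk4, chr14:55651514-55651573, plus strand: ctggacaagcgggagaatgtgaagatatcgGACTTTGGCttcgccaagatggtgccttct
Tssk5, chr15:76373162-76373538, minus strand, joined across an intron: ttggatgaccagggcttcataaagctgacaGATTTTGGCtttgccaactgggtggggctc
Tssk6, chr8:69902737-69902796, plus strand: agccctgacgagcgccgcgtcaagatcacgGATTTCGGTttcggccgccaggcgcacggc

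The windows of Tssk1 and Tssk2 were identical at 59 of 60 bases, while all other pairs shared between 24 and 36 of the 60. Over the aligned coding sequences Tssk1 and Tssk2 were 81.9% identical, and the other pairs were between 61.4% and 67% identical. This closeness bears on the counts, since only uniquely mapped reads were counted. Of the 100-base windows along the exons, 0.694% in Tssk1 and 1.94% in Tssk2 also occurred elsewhere in the genome, and none did in the other 4 members. For 50-base windows the shares were 3.42% and 9.34%. By the paper's methods, reads before trimming were paired and longer than both windows, so these shares overstate the loss of full-length reads. Shorter reads of these stretches may be missing from both genes.

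The 6 genes lie at 5 places in the genome. Tssk1 (ENSMUSG00000041566.3, chr16:17894223-17897922) and Tssk2 (ENSMUSG00000045521.7, chr16:17898637-17900024) are single-exon neighbours on the plus strand, 714 bases apart in the annotation used for the counts and 2983 bases apart by the shorter RefSeq model of Tssk1. Tssk6 (ENSMUSG00000047654.6, chr8:69902184-69903518, plus strand) also has a single exon. Tssk3 (ENSMUSG00000000411.7, chr4:129489014-129491022, minus strand) has 2 coding exons, Tssk4 (ENSMUSG00000007591.15, chr14:55650184-55652539, plus strand) has 4, and Tssk5 (ENSMUSG00000060794.8, chr15:76371952-76374938, minus strand) has 8. Tssk6 shares 375 bases, 28.1% of its length, with exons of the antisense gene Ndufa13, a subunit of mitochondrial complex I that held between 2296 and 4531 counts per library. Whether the counting used strand is not given in the sources used here, so the counts of these genes may be incomplete or mixed. Ndufa13 itself differed between acRIP and IgG by a log2 fold change of -0.05 (SE 0.05, adjusted p = 0.365, edgeR). Over input it was higher in acRIP by 0.14 (SE 0.05, adjusted p = 0.0116, edgeR) and in IgG by 0.20 (SE 0.05, adjusted p = 0.00134, edgeR), and its part in the Tssk6 changes given below was not tested.

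Total counts ranged from 22023925 to 31340090 in input, from 14647542 to 18786779 in IgG and from 16025779 to 18639134 in acRIP. Input libraries detected 28552 to 29642 genes, IgG libraries 26204 to 26874, and acRIP libraries 22206 to 22402. Markers of spermatids led the tissue check. The 7 elongating spermatid genes summed to between 21869 and 23980 CPM, counts scaled to the library total, in input. They summed to between 23289 and 23998 in IgG and to between 23572 and 25021 in acRIP. The 6 round spermatid genes summed to between 2254 and 2266 CPM in input, between 1395 and 1466 in IgG and between 1413 and 1466 in acRIP, and the 7 spermatocyte genes to between 1698 and 1763, between 1697 and 1757, and between 1443 and 1492. The 6 spermatogonium genes summed to 73.9 to 85.7 CPM in input, 96.2 to 110 in IgG and 80.5 to 88.6 in acRIP. The 5 Leydig cell genes summed to 1045 to 1076, 940 to 957 and 876 to 902, in that order. A sum can hide opposite changes of its members. In acRIP over IgG, Zbtb16 of the spermatogonium list changed by 2.13 and Gfra1 by -2.11 on the log2 scale. Over input, Odf1 of the elongating spermatid list changed by 2.79 and Akap4 by -1.39. Among 6 Sertoli cell genes, summing to between 41.5 and 60.1 CPM, Rhox5 had no counts. The 3 peritubular genes summed to between 37.8 and 39.7 CPM in input, between 51.1 and 56.5 in IgG and between 49.8 and 56.1 in acRIP. The 3 macrophage genes went from between 10.9 and 15 CPM in IgG to between 1.07 and 2.62 in acRIP. Alas2, an enzyme of haem synthesis in erythroid cells, had between 240 and 304 counts in IgG and between 32 and 36 in acRIP, a log2 fold change of -2.92 (SE 0.18, adjusted p = 1.56e-14, edgeR). The part of these shifts in the Tssk results was not tested.

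In input the family was abundant, and its 6 members spanned a wide range. These are levels in bulk tissue, in which fewer cells of a type and less RNA per cell cannot be told apart. Levels are given as FPKM, counts divided by the gene's length and by the library's total, which allows genes to be compared. Tssk2 was the highest, with 711.3, 681 and 658.9 FPKM in the 3 input libraries (683.7 ± 26.3, SD, n = 3), rank 77 of the 33250 genes with a count in input. Tssk3 had 346, 332.2 and 337.7 FPKM (338.6 ± 6.92, SD, n = 3) and Tssk6 had 333.2, 316.3 and 292.7 FPKM (314.1 ± 20.3, SD, n = 3). These 2 neighbours in the order overlapped and cannot be ordered. Tssk1 had 249.8, 248 and 246.1 FPKM (248 ± 1.87, SD, n = 3), below all libraries of Tssk3 and Tssk6, and Tssk4 had 101.2, 98.85 and 102.3 FPKM (100.8 ± 1.79, SD, n = 3). Tssk5 was the lowest by far, with 4.987, 6.418 and 5.912 FPKM (5.772 ± 0.725, SD, n = 3), rank 7634.

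The place of Tssk1 in this order depends on the gene model. The deposited table gives it a length of 3700 bases, while its longest curated RefSeq transcript has 1451 bases. RefSeq lengths were then put in place of the deposited ones, a choice made after the data were seen. With them Tssk1 reached 632.3 ± 4.76 FPKM (SD, n = 3) in input, next to Tssk2 at 683.7 and above Tssk3 at 419.2. The counts were not redone over the RefSeq transcripts. Any reads in the rest of the 3700 bases would make the value of Tssk1 too high. In raw counts the neighbours were close. Tssk1 had 28969, 20210 and 20207 counts in the input libraries, and Tssk2 had 30942, 20819 and 20296. Changes between groups do not use the length.

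**Figure D1:**
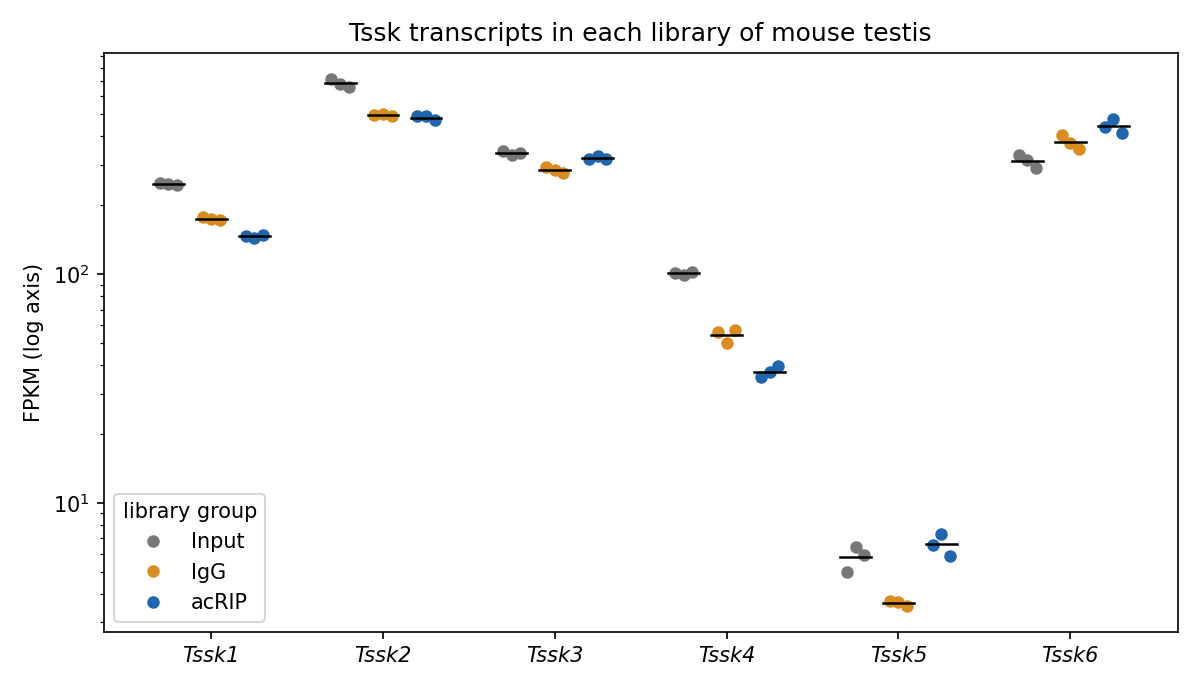
FPKM of each Tssk member (log axis) in the 3 input (grey), 3 IgG (orange) and 3 acRIP (blue) libraries of mouse testis, where a point is a library and the black line is the group mean. Tssk4 steps down from 100.8 in input to 54.29 in IgG and 37.51 in acRIP, and Tssk6 steps up from 314.1 to 378.5 and 444.1.

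No member passed the test as higher in acRIP, where a call needed more than a 2-fold difference together with an adjusted p below 0.05 (edgeR's quasi-likelihood test, Benjamini-Hochberg adjustment). Against IgG 0 of 6 members were called higher and 0 lower, where 11.5% of the 22510 tested genes were called higher and 20.9% lower. Against input 0 members were called higher, with 17.7% of all genes, and 1 was called lower, Tssk4, with 22.9% of all genes. The study's rule for ac4C targets joins a limit on the ratio of FPKM + 1 with tests against both groups. Its ratio limit for moderately acetylated genes, over 2 against both IgG and input, was applied here without those tests. By this limit 0 of 6 members and 2.02% of 35699 genes passed. Highly acetylated genes need a higher ratio against IgG in the study, which no member reached. The largest such ratio of a member against IgG was 1.63 for Tssk5, and the largest against input was 1.41 for Tssk6.

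The members did change by smaller steps, and not in the same direction. With the adjusted p alone and no limit on the fold, Tssk3, Tssk5 and Tssk6 were higher in acRIP than in IgG, 3 of 6 members beside 26.4% of all genes, and Tssk1 and Tssk4 were lower, 2 of 6 beside 37.6% of all genes. Against input, Tssk6 alone of the 6 was higher by this rule, beside 32.0% of all genes, and Tssk1, Tssk2 and Tssk4 were lower, beside 40.3%. The median log2 fold change of the 6 members was 0.12 against IgG and -0.20 against input, where the medians of all tested genes were -0.09 and -0.10.

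**Figure D2:**
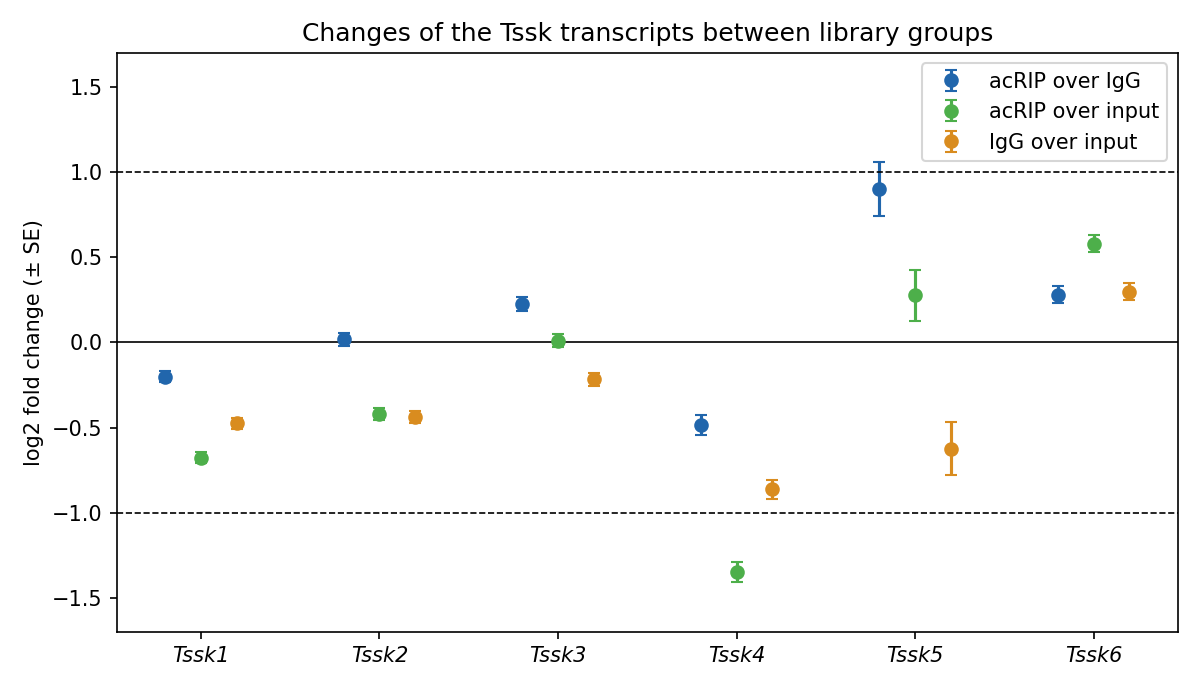
Log2 fold change of each Tssk member with its SE, for acRIP over IgG (blue), acRIP over input (green) and IgG over input (orange), with 3 libraries per group and dashed lines at a fold change of 2. Tssk4 over input is the value beyond the dashed lines, at -1.35, and Tssk5 over IgG, at 0.90, comes nearest to the upper line.

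Tssk4, whose kinase phosphorylates ODF2 of the sperm tail, showed the largest decrease of the family. It had 5448, 3738 and 3900 counts in input, 1402, 1619 and 1818 in IgG, and 976, 1197 and 1142 in acRIP. Per length and depth these were 101.2, 98.85 and 102.3 FPKM, then 55.75, 50.19 and 56.94, then 35.47, 37.4 and 39.65, so that the 3 groups did not overlap. In acRIP it fell by 1.35 on the log2 scale from input (SE 0.06, adjusted p = 1.39e-19, edgeR), which is 2.54-fold, and by 0.48 from IgG (SE 0.06, adjusted p = 3.37e-08, edgeR). Much of the distance to input was already present in IgG, which was lower than input by a log2 fold change of -0.86 (SE 0.06, adjusted p = 1.12e-14, edgeR).

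Tssk1 moved in the same order as Tssk4, by less. Its FPKM values were 249.8, 248 and 246.1 in input, 177, 174.1 and 173.1 in IgG, and 147.3, 144.2 and 149 in acRIP, with no overlap between groups. The log2 fold change was -0.20 against IgG (SE 0.03, adjusted p = 4.16e-06, edgeR) and -0.68 against input (SE 0.03, adjusted p = 3.31e-18, edgeR). Tssk2, its neighbour and closest relative, did not separate acRIP from IgG. It had 496.4, 499.2 and 489.9 FPKM in IgG and 490.9, 491.4 and 470.4 in acRIP, which overlap, and its log2 fold change was 0.02 (SE 0.04, adjusted p = 0.691, edgeR), with no settled sign, since scaling by library totals gave -0.03. Both groups lay below input, where Tssk2 had at least 658.9 FPKM in every library, and the log2 fold change of acRIP over input was -0.42 (SE 0.04, adjusted p = 5.22e-12, edgeR).

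The relation between Tssk1 and Tssk2 can be read inside each library, where scaling plays no part. The ratio of Tssk1 to Tssk2 counts was 0.936, 0.971 and 0.996 in input, 0.95, 0.93 and 0.942 in IgG, and 0.8, 0.782 and 0.844 in acRIP. All 3 acRIP libraries were below all others, and the ratio in acRIP was 0.86 times that in IgG (exact permutation test, two-sided, n = 3 and 3, p = 0.1, the smallest p this design allows). IgG and input overlapped in this ratio.

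Tssk6, the member linked to histone removal, was higher after precipitation with either antibody. It had 333.2, 316.3 and 292.7 FPKM in input, 407.1, 374.4 and 354 in IgG, and 438.4, 479.3 and 414.5 in acRIP. The groups did not overlap in FPKM. In TPM, length-corrected counts scaled to the same sum in each library, input (592 to 653.5) and IgG (614.8 to 708.8) overlapped. The log2 fold change of acRIP was 0.28 over IgG (SE 0.05, adjusted p = 1.9e-05, edgeR) and 0.58 over input (SE 0.05, adjusted p = 1.11e-11, edgeR), and that of IgG over input was 0.30 (adjusted p = 9.54e-06, edgeR). These counts carry the limit of the antisense overlap given above.

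Tssk3, whose kinase is activated by PDPK1, had 346, 332.2 and 337.7 FPKM in input, 293.7, 286.5 and 276.5 in IgG, and 320.4, 330.2 and 317.4 in acRIP. All acRIP libraries were above all IgG libraries, with a log2 fold change of 0.23 (SE 0.04, adjusted p = 8.59e-06, edgeR). Against input the fitted log2 fold change was 0.01 (SE 0.04, adjusted p = 0.824, edgeR), and its sign turned with the scaling, to -0.07 by library totals. In FPKM, which also uses library totals, all acRIP libraries were below all input libraries.

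Tssk5 had few counts and the widest spread of the family. It held 324, 293 and 272 counts in input, 113, 144 and 137 in IgG, and 218, 283 and 204 in acRIP. In FPKM these were 4.987, 6.418 and 5.912, then 3.721, 3.698 and 3.554, then 6.562, 7.324 and 5.867, so that acRIP stood above IgG in every library and overlapped input. The log2 fold change over IgG was 0.90 (SE 0.16, adjusted p = 1.25e-05, edgeR), or 1.87-fold, and over input it was 0.28 (SE 0.15, adjusted p = 0.098, edgeR). Without acRIP replicate 3 the difference from input was 0.37 (adjusted p = 0.0465, edgeR). This was the only 1 of 18 alternatives tested against no change with an adjusted p below 0.05. Without input replicate 1 it was 0.19 (adjusted p = 0.337, edgeR). IgG was lower than input by a log2 fold change of -0.62 (SE 0.16, adjusted p = 0.0012, edgeR). Its change over IgG exceeded that of 86.1% of tested genes.

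IgG over input gave 0 members called higher and 0 lower at the fold limit, where 13.5% and 7.22% of all genes were called. With the adjusted p alone 1 member was higher, Tssk6, beside 25.9% of all genes, and the other 5 were lower, beside 26.0%. The 3 comparisons share their groups and are not independent of each other.

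The make-up of the family differed between the groups. The 6 genes together took between 0.284% and 0.298% of all counts in input, between 0.225% and 0.237% in IgG and between 0.224% and 0.236% in acRIP, so that IgG and acRIP overlapped. Within that sum, Tssk6 went from between 13.8% and 14.9% of the family's counts in input to between 24.7% and 27.1% in acRIP, while Tssk1 went from between 31% and 32.1% to between 22.6% and 24.6%. The ratio of Tssk6 to Tssk1 counts was 0.481, 0.46 and 0.429 in input, 0.83, 0.776 and 0.738 in IgG, and 1.07, 1.2 and 1 in acRIP. The ratio of Tssk6 to Tssk3 set the precipitated libraries apart from input, at most 1 in input and at least 1.34 in IgG and acRIP, but IgG and acRIP overlapped. The ratio of Tssk5 to Tssk4 did the reverse, with 0.0595, 0.0784 and 0.0697 in input, 0.0806, 0.0889 and 0.0754 in IgG, and 0.223, 0.236 and 0.179 in acRIP. The last 3 ratios were chosen after the changes had been seen and are descriptions.

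**Figure D3:**
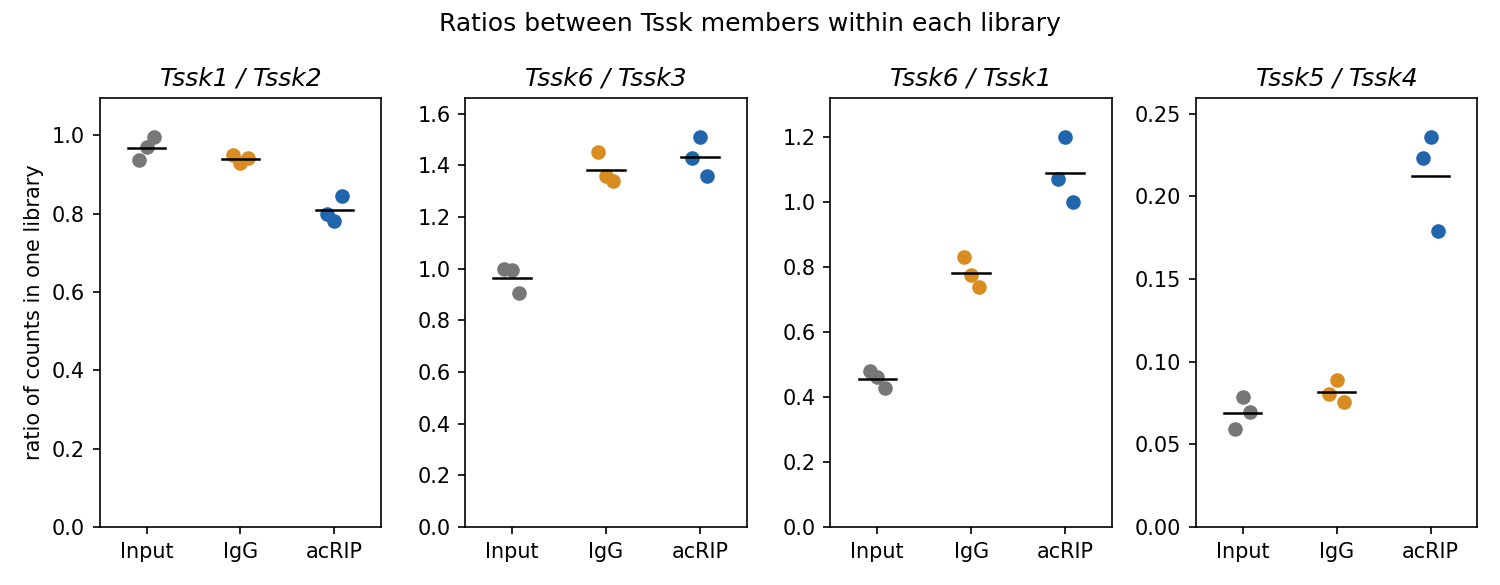
Ratios of counts between pairs of Tssk members inside each library, from 0 upward, where a point is a library and the black line is the group mean. The acRIP libraries stand apart from IgG in 3 of the 4 ratios, and overlap them in the ratio of Tssk6 to Tssk3.

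Over the 9 libraries, the log2 CPM of Tssk1 and Tssk4 had a Pearson r of 0.992 and that of Tssk3 and Tssk5 an r of 0.892, while Tssk6 against Tssk4 had -0.93. These points share 3 groups and describe the order of the groups. The genes whose pattern was most like that of a member, by the same measure, were Ubl7 (r = 0.9979) and Abhd4 (0.9977) for Tssk1, Ubxn6 (0.9952) and 4933417A18Rik (0.9944) for Tssk2, and Papln (0.9908) and Ly6g6c (0.9864) for Tssk3. For Tssk4 they were Usp8 (0.9978) and Prc1 (0.9971), and for Tssk6 they were Gm4799 (0.993) and Tnp2 (0.9904), the latter a transition protein gene. For Tssk5 they were Zfp791 (0.9787) and Gm9958 (0.9783), both with 0 counts in all IgG libraries and at most 62 counts in any library.

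ac4C lies on cytidines, so the base content of the members was set beside that of other genes. Cytidine made up between 25.2% and 32.6% of the exon bases of the members, with a median of 24.1% over 15512 genes, and Tssk6 was the highest at 32.6%. At the wobble position of codons, their last base, cytidine made up 31% in Tssk3, 33.6% in Tssk5, 39.1% in Tssk4, 39.2% in Tssk1, 42.2% in Tssk2 and 46.5% in Tssk6, beside a median of 29.8% over 14955 genes. The testis motif that the study derived from these libraries, CNCAGNNC with A, C or T at positions 2 and 7 and C or G at position 6, was searched on the transcript strand only. It occurred 2 times in the exons of Tssk1 and Tssk5, 1 time in Tssk3 and Tssk4, and not in Tssk2 or Tssk6, and 86% of the 15512 genes hold at least 1 match. That share depends on length, and Tssk2 and Tssk6 are short, with only 8.44% and 7.65% of these genes shorter. Per kilobase the members with a match had between 0.541 and 0.965 matches, beside a median of 0.66 over these genes. The only match in a coding sequence is shown because it lies in Tssk5, the member with the largest change over IgG, with the motif in capitals. A match is a description of letters and not a site of acetylation.
Tssk5, chr15:76373712-76373741, minus strand: ctccgatgttgCCCAGGACtggaggaggaa

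The products that act with these kinases were taken from a list of 11 partners and substrates. In acRIP over IgG, 0 of 11 were called higher and 1 lower, beside the 11.5% and 20.9% of all genes. Without the fold limit 3 were higher and 5 lower, beside 26.4% and 37.6% of all genes, and the list's median log2 fold change was 0.00, beside -0.09 for all genes. Tsks, the substrate of TSSK1 and TSSK2, was higher by 0.20 (adjusted p = 0.000125, edgeR), Spag16, an axonemal substrate of TSSK2, by 0.34 (adjusted p = 4.22e-07), and Hspa1l, a testis heat shock protein, by 0.31 (adjusted p = 1.55e-05). Tsacc, a co-chaperone of TSSK1 and TSSK2, had 0.10 (adjusted p = 0.139), Odf2 had 0.05 (adjusted p = 0.125) and Ppp1cc, a protein phosphatase 1 subunit, had 0.00 (adjusted p = 0.999). The other 5 were lower. They were Creb1, a transcription factor (-1.04, adjusted p = 2.1e-06), the chaperone genes Hsp90ab1 (-0.51, adjusted p = 3.88e-12), Hsp90aa1 (-0.30, adjusted p = 3.43e-09) and Hspa2 (-0.27, adjusted p = 1.95e-07), and Pdpk1, the kinase that activates TSSK3 (-0.38, adjusted p = 1.4e-07). Hspa2 is also among the spermatocyte markers.

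Against input 3 of 11 were called higher and 0 lower, beside 17.7% and 22.9% of all genes. They were Hspa1l (2.78, adjusted p = 1.84e-27), Ppp1cc (1.38, adjusted p = 3.64e-06) and Hsp90aa1 (1.14, adjusted p = 4.05e-24). All 3 were also above input in IgG, by 2.48, 1.38 and 1.44. Tsks differed from input by 0.04 (adjusted p = 0.399).

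Of 18 other protein kinases of male germ cells, 16 could be tested. Nek2 had no counts and Plk4 at most 1 in any library. None of the 16 was called in acRIP over IgG at the fold limit, beside 11.5% of all genes higher and 20.9% lower. Without it 4 were higher and 8 lower, beside 26.4% and 37.6%, with a median of -0.16 beside -0.09 for all genes. The ends were Tesk2 (0.77, adjusted p = 9.63e-09) and Tesk1 (0.50, adjusted p = 0.000316), kinases of the testis and the actin cytoskeleton, and Dyrk4 (-0.75, adjusted p = 1.47e-07) and Haspin (-0.40, adjusted p = 4.04e-11), a histone H3 kinase. Against input 0 of 16 were called higher and 3 lower, beside 17.7% and 22.9% of all genes. The 3 were Dyrk4, Mak and Haspin, with log2 fold changes of -1.48, -1.29 and -1.09.

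Of 17 kinases related to AMPK by sequence, 15 could be tested. Prkaa2 and Nuak1 did not pass the filter on low counts. They had at most 26 and 22 counts in an IgG library and 0 in every acRIP library. In acRIP over IgG 2 were called higher and 1 lower, beside 11.5% and 20.9% of all genes, with a median of -0.10 beside -0.09. Brsk1 (1.06, adjusted p = 0.00121) and Sik1 (1.04, adjusted p = 3.24e-05) were higher, and Nim1k (-1.05, adjusted p = 7.65e-09) and Mark3 (-0.60, adjusted p = 3.32e-06) were at the other end, where Mark3 did not reach the fold limit. Against input 5 were called higher and 1 lower, beside 17.7% and 22.9% of all genes, and the median was 0.56 beside -0.10. Genes of this list also tended to be higher in IgG than in input, and the cause was not tested. In IgG over input 7 of the 15 were called higher and 0 lower, beside 13.5% and 7.22% of all genes. The median there was 0.30 beside -0.01. In input all 17 lay below the 5 abundant Tssk members, with Hunk the highest at 8.79 FPKM. Brsk1 had between 18 and 35 counts in an input library, and Sik1 between 46 and 70.

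**Figure D4:**
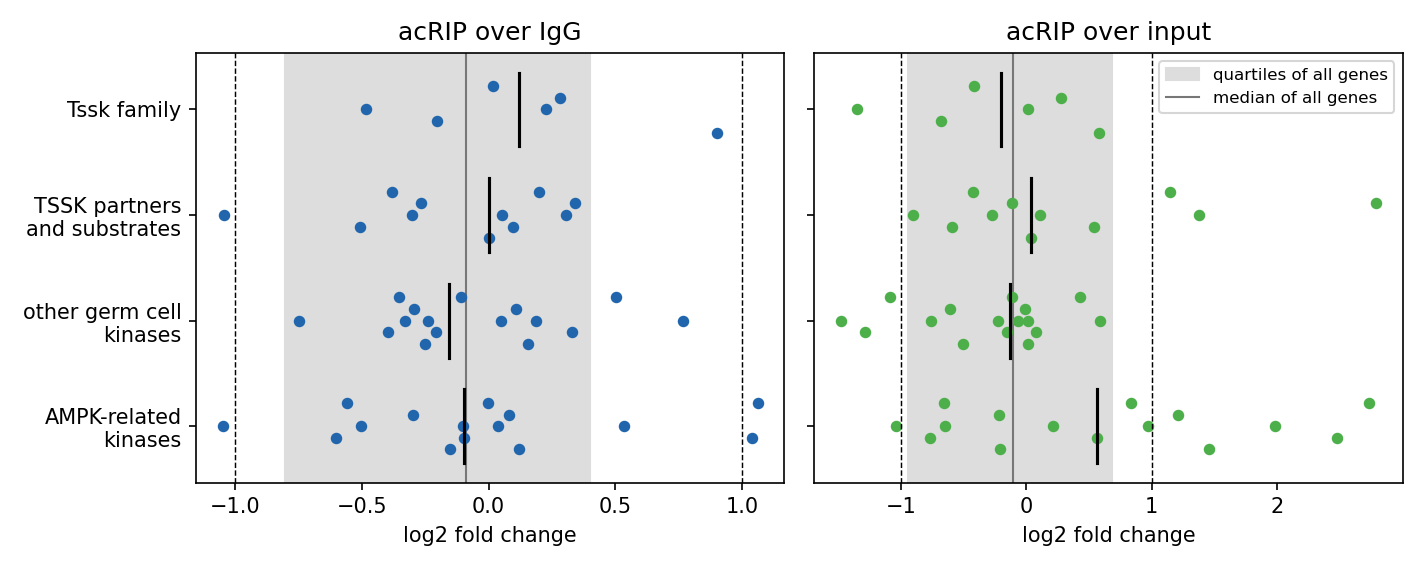
Log2 fold changes of single genes (points) and their list medians (black lines) for the 6 Tssk members, 11 partners and substrates, 16 other germ cell kinases and 15 AMPK-related kinases, in acRIP over IgG (left) and acRIP over input (right). The grey band runs from the lower to the upper quartile of the 22510 tested genes, and all Tssk members but Tssk5 over IgG and Tssk4 over input lie inside it.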

How the data were processed

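Poly(A) RNA of mouse testis was sequenced by the Smart-seq2 method in 9 libraries, and groups and replicate numbers came from the sample labels. The authors trimmed the reads with Trim Galore 0.6.7, mapped them to mm10 with STAR 2.7.10a and counted uniquely mapped reads per gene with featureCounts 2.0.2, per the labels' processing notes and the paper's methods. The deposited values are raw counts, with the gene length beside them. The annotation, the use of strand and whether mates were counted singly are not given in the sources used here. Even numbers made up 81.9% to 84.3% of the counts from 1 to 20. No per-sample column went unused (0 of them).

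Gene symbols came from GENCODE, which matched 55141 of 55401 identifiers. All 9 libraries entered a single edgeR 4.0.16 fit (R 4.3.3) of the counts, after filterByExpr and TMM scaling, and quasi-likelihood p-values were adjusted over 22510 genes by the Benjamini-Hochberg method. By the methods, RNA in the IgG and acRIP groups was not quantified, so all values are relative to their own library. FPKM was computed from counts, lengths and library totals. DESeq2 1.42.0 was an alternative, beside other normalizations and filters, halved counts, a replicate block, and fits that each dropped 1 library. The code was tested on simulated data. Text names all 6 members and the partner list in full. It also names the 2 highest and 2 lowest genes over IgG of both kinase lists, and the 2 genes most alike each member. Mak, Hunk, Prkaa2, Nuak1, Alas2, Ndufa13, Nek2, Plk4 and single markers were named after their values were seen. Members and lists were chosen with earlier results of these data known. Peaks were not analysed here. The erythrocyte marker list is not reported here as a whole.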

Additional observations from a re-analysis of the deposited data

How the results depend on the processing

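The calls at the fold limit were stable in the alternatives run. In all 114 recomputations of the 6 counts of members called, over 19 alternatives each, the same members were called, namely Tssk4 as lower in acRIP than in input and no other. Dropping the fold limit moved the counts to 3 higher and 2 lower for acRIP over IgG, 1 higher and 3 lower for acRIP over input, and 1 higher and 5 lower for IgG over input. The study's FPKM ratio gave 0 members under each alternative run. The replicate block changed no call, with Tssk4 at -1.35 over input and Tssk5 at 0.90 over IgG. Deviations of same-numbered libraries from their group means had r between -0.00659 and 0.0351 over genes. Counting noise lowers such an r, so it cannot decide whether the numbers pair the samples. Leaving out 1 library at a time gave Tssk4 over input between -1.37 and -1.30, and Tssk5 over IgG between 0.81 and 0.99. Of 342 recomputed member changes, 5 had another sign, 1 for Tssk2 over IgG and 4 for Tssk3 over input, whose values stayed between -0.03 and 0.07 and between -0.07 and 0.04. The order of levels depends on gene length, most of all for Tssk1. Tssk5 has at most 324 counts in a library, which limits its precision.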
